A study of Mus musculus with 13 samples.

Results

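Natural killer (NK) cells and CD8 T cells sorted from the mouse spleen were compared on 4 microarrays, 2 of NK cells and 2 of CD8 T cells. These 4 were taken by their sample titles from the 13 arrays of the study, which cover 6 leukocyte populations. Both are killer lymphocytes that empty granules of perforin and granzymes onto a target cell and carry death ligands of the tumour necrosis factor family. CD8 T cells recognise peptides on MHC class I molecules through a rearranged T cell receptor, which signals through the CD3 chains. NK cells have no rearranged receptor and weigh signals of germline-encoded activating and inhibitory receptors, many of which bind MHC class I or related molecules. The comparison asks which genes differ between the populations, and which genes of the killing machinery both share.

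All mice were wild-type C57BL/6, and the labels name no treatment. For each NK cell array, the spleens of 6 to 10 untreated mice were pooled and cells were sorted as NK1.1+TCRβ-, in 2 independent experiments, and the labels give neither age nor sex for them. Each CD8 T cell array held RNA of 1 mouse, labelled female and 6 to 8 weeks old, sorted in other independent experiments with a gate that the sources used here do not spell out. The 3 B cell arrays used for comparison held cells of 3, 2 and 1 mice, the last 2 arrays labelled follicular B cells of male mice 6 weeks old. The instrument records list 100 ng of RNA for both NK cell arrays, no amount for the CD8 T cell arrays, and 100, 50 and 50 ng for the B cell arrays. The authors checked the purity by flow cytometry. Signals are linear MAS5 values scaled by the authors to a target of 100 on each array. The differences given below are NK cells minus CD8 T cells on a log2 scale, with values under 20 set to 20. They come from limma fitted to all 13 arrays with Benjamini-Hochberg adjustment over 9391 genes, and a gene was called at an adjusted p under 0.05. The p-values rest, for each gene, on 1 estimate of the spread between arrays of a population, shared by all 6 populations. NK cells and CD8 T cells add only 2 arrays each to it. Their arrays differ as 2 mice do for CD8 T cells and as 2 pools do for NK cells.

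The arrays of each population resembled each other closely, with a correlation over the genes tested of 0.975 for NK cells and 0.981 for CD8 T cells. The sex label of the CD8 T cell arrays was not met by the data. The X inactivation transcript *Xist* read 0.805 and 0.732 in NK cells, compared with 0.963 and 0.877 in CD8 T cells, whereas the Y-linked *Eif2s3y* read 384 and 346 in NK cells, compared with 689.9 and 968 in CD8 T cells. Both NK cell arrays were scanned on one day together with B cell arrays, and both CD8 T cell arrays on another day and from a chip lot of their own, so that cell type cannot be told apart from scan day and chip lot. The array names fall into 2 sets, one with the NK cell arrays and the other with the CD8 T cell arrays, while B cell arrays are in both. The ratio of 3′ to 5′ signal of the GAPDH control, a sign of RNA or amplification quality, was 23.9 and 11.2 on the NK cell arrays, compared with 3.46 and 3.96 on the CD8 T cell arrays, and its part in the results below was not tested. Markers of B cells and of myeloid cells were low on all 4 arrays. The summed signal of 9 B cell markers was 182 and 177 in NK cells, compared with 282 and 217 in CD8 T cells, and the 1 gene of them called, *Cd79b*, a chain of the B cell receptor, accounted for 30.5 and 27.7 in NK cells, compared with 131 and 128 in CD8 T cells. The 13 dendritic cell and myeloid markers tested, among them the MHC class II genes, summed with 2 that were too low to test to 346 and 312 in NK cells, compared with 641 and 305 in CD8 T cells, with 1 gene called higher and 2 lower in NK cells. Of the erythroid and platelet markers only *Car2*, a carbonic anhydrase, passed the filter, and it had 1425 and 1995 in NK cells, against 128 and 104 in CD8 T cells. With 7 others too low to test, the sum was 1526 and 2122 in NK cells, compared with 281 and 183 in CD8 T cells.

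The genes that define the populations read as their labels say. *Ncr1*, which encodes the activating receptor NKp46 found on nearly all NK cells, had a signal of 1059 and 1628 in NK cells, against 8.09 and 6.25 in CD8 T cells. Both CD8 T cell values lay under the floor, so the difference is a bound of at least 65.7-fold higher in NK cells (adjusted p = 6.22e-09, limma). *Cd3e*, which encodes the CD3 epsilon chain of the T cell receptor complex, had 26.7 and 17.4 in NK cells, against 562 and 625 in CD8 T cells, a log2 difference of -4.68 ± 0.17 (SE; adjusted p = 1.48e-08). *Tbx21* encodes T-bet, a transcription factor that drives cytotoxic and interferon gamma genes in both lineages. It had 3357 and 2884 in NK cells, against 480.4 and 418 in CD8 T cells, and was 6.94-fold higher in NK cells (adjusted p = 1.32e-05), so that T-bet was read in both populations but *Ncr1* and *Cd3e* each in 1 of them. Without the floor the adjusted p of *Tbx21* was 0.0756 at the same difference.

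To show where these genes are read from, the promoters of *Ncr1* and *Cd3e*, high in opposite populations, and of *Prf1* and *Gzmb*, the perforin and granzyme B genes read in both, are printed from RefSeq (GRCm38.p6), each from 250 bases before to 50 after the start, 5′ to 3′ on the gene's strand. The capitals mark 3 short motifs, searched on both strands: the T-box motif AGGTGT, the Runx motif TGTGGT and the TCF and LEF motif CTTTGA.
Ncr1, chr7:4337465-4337764, plus strand: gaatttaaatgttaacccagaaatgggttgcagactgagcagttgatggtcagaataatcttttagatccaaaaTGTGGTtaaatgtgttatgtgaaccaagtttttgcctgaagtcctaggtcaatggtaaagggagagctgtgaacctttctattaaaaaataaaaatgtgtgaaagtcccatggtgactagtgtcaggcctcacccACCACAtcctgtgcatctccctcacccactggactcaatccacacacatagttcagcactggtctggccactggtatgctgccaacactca
Prf1, chr10:61297586-61297885, plus strand: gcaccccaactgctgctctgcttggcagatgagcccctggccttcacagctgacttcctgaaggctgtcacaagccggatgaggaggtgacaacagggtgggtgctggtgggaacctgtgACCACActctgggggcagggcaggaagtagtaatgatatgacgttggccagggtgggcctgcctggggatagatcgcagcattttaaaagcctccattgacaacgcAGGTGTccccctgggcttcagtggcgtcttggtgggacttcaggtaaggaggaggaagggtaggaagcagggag
Gzmb, chr14:56262285-56262584, minus strand: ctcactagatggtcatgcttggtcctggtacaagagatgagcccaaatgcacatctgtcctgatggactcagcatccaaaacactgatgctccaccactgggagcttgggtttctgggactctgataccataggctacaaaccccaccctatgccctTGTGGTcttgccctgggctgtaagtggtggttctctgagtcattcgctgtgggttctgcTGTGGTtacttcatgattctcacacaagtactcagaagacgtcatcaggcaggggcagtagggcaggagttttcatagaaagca
Cd3e, chr9:45009562-45009861, minus strand: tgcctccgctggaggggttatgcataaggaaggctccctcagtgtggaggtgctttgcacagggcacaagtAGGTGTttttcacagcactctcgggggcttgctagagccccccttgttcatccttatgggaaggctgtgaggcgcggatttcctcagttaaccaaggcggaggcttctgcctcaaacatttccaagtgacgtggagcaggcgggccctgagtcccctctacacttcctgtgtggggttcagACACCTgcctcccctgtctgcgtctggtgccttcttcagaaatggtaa
*Ncr1* holds the Runx letters at 2 places and *Gzmb* also at 2, *Prf1* holds 1 Runx and 1 T-box match, *Cd3e* holds 2 T-box matches, and none of the 4 holds the TCF and LEF letters. Of 7683 genes tested with a promoter in this table, 12.6% held the Runx letters, 10.3% the T-box letters and 11.9% the TCF and LEF letters. Among the 15 genes with the largest difference each way, which are named below, 5 of the 14 promoters of genes higher in NK cells and 1 of the 11 promoters of genes lower in NK cells held the Runx letters. The T-box letters were in 1 of the 14 and 2 of the 11, and the TCF and LEF letters in 2 of the 14 and 0 of the 11. Over all called genes the shares were close to that of the genes tested, at 12.9% of 1653 higher and 11.3% of 1278 lower genes for Runx, 9.68% and 11.9% for T-box and 11% and 12.7% for TCF and LEF. A match of letters is a description and not evidence of binding.

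Across the transcriptome, 3583 of 9391 genes were called (38.2%): 2021 were higher in NK cells (21.5%) and 1562 lower (16.6%). Of these, 1198 were higher and 1018 lower by at least 2-fold, and 120 higher and 83 lower by at least 8-fold. The median difference over all genes tested was 0.05. In 178 of the higher genes both CD8 T cell arrays, and in 107 of the lower genes both NK cell arrays, lay at the floor, and for them the fold is a lower bound. In a bulk sample a higher signal may reflect more cells that express a gene or more RNA per cell, which cannot be told apart here. The count of lower genes was 1010 without CD8 T cell replicate 1. With a term for the set of array names 1596 genes were higher and 1453 lower, and with scan day as a random block 2129 were higher and 1657 lower.

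**Figure D1:**
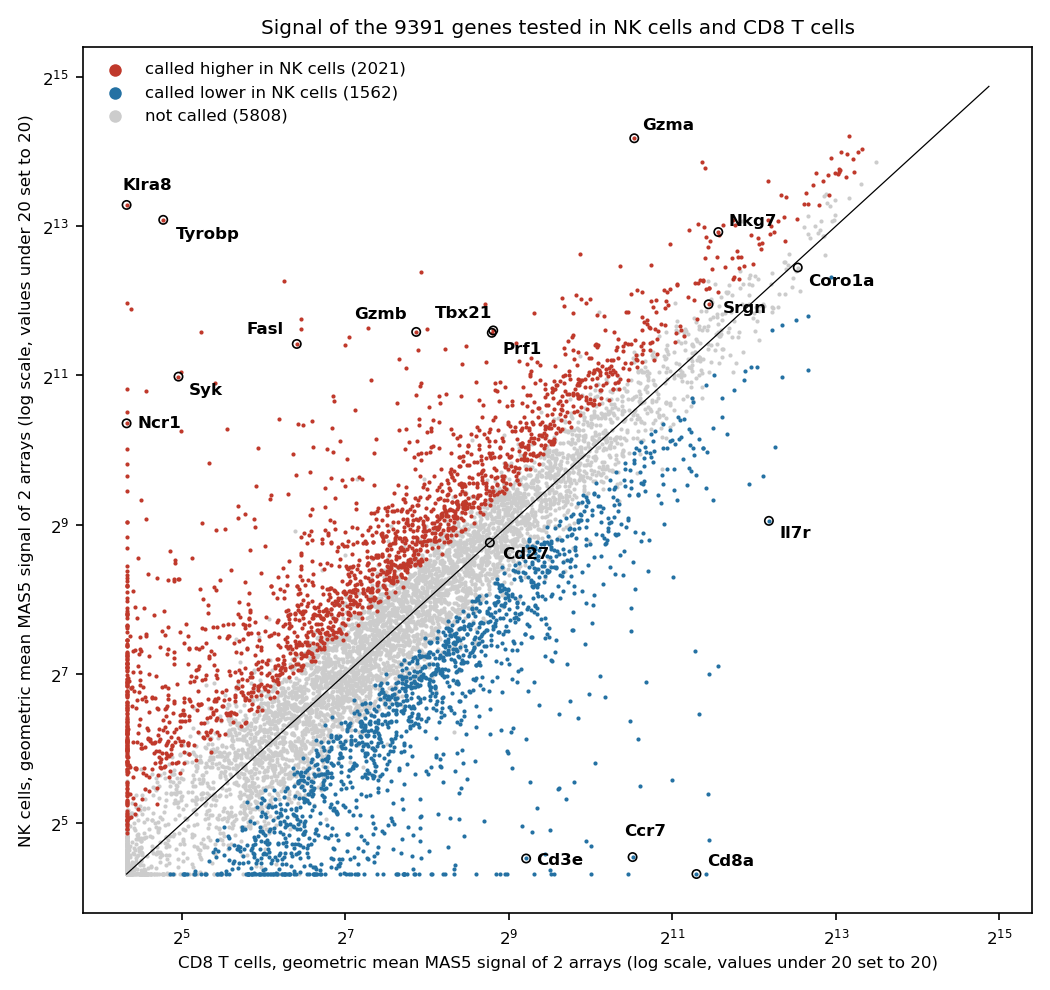
Each point is 1 of 9391 genes, with the geometric mean MAS5 signal of 2 CD8 T cell arrays on the horizontal axis and of 2 NK cell arrays on the vertical axis, both on a log scale with values under 20 set to 20. The 2021 genes called higher in NK cells lie above the diagonal and the 1562 called lower below it, with Klra8 and Tyrobp at the upper left, Cd8a and Ccr7 at the lower right and Coro1a and Cd27 near the line of equal signal.

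The 15 genes with the largest difference on the NK cell side held 9 genes of receptors and of the adaptors they signal through. *Klra8*, the activating receptor Ly49H that binds a protein of mouse cytomegalovirus, led with 10778 and 9236 in NK cells, against 16.7 and 15.6 in CD8 T cells, at least 499-fold higher. *Tyrobp* and *Fcer1g*, which encode the ITAM adaptors DAP12 and the Fc receptor gamma chain, stood near the top. *Tyrobp* had 8649 and 8727 in NK cells, compared with 37.2 and 12.8 in CD8 T cells. *Fcer1g* had 3456 and 4166 in NK cells, compared with 21.5 and 14.1 in CD8 T cells. Both adaptor genes were bright in NK cells and near or under the floor of 20 in CD8 T cells. *Sulf2*, an extracellular sulfatase, had 4104 and 3922 in NK cells, against 5.30 and 16.2 in CD8 T cells. A different probe set of *Sulf2* did not separate the populations, with 719 and 912 in NK cells, compared with 682 and 702 in CD8 T cells. A further probe set of *Sulf2* was called higher in NK cells, with 422 and 756, against 5.12 and 13.2 in CD8 T cells (4.82). The remaining 11 were the receptor genes *Cd244a* (at least 90.4-fold), *Klrb1a* (at least 72.8-fold), *Ncr1*, *Klre1* (64.4-fold), *Klrb1f* (44.9-fold) and *Klrb1b* (at least 44.9-fold), the chemokine gene *Ccl3*, the kinase gene *Syk*, *Spry2* (75.6-fold), an inhibitor of receptor tyrosine kinase signalling, the homeobox factor *Hhex* (at least 51.6-fold) and *Anxa1* (67.1-fold), the annexin A1 gene. The log2 differences of *Anxa1* and *Klre1* were 6.73 and 6.64 without CD8 T cell replicate 1 and 5.40 and 5.38 without CD8 T cell replicate 2, with the call kept in both cases.

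The 15 genes with the largest difference on the CD8 T cell side were led by both chains of the CD8 coreceptor. *Cd8b1* had 15.6 and 2.78 in NK cells, against 2324 and 3201 in CD8 T cells, and was at least 136-fold lower in NK cells. *Cd8a* had 4.48 and 4.01 in NK cells, against 2400 and 2629 in CD8 T cells, at least 126-fold lower. CD8 defines these cells by their label, so these values check the label rather than add a finding. *Igfbp4*, an insulin-like growth factor binding protein, had 37.3 and 1.34 in NK cells, against 2839 and 2741 in CD8 T cells, and was 102-fold lower. *Dapl1*, which encodes a death associated protein-like protein, had 33.6 and 1.49 in NK cells, against 1058 and 994 in CD8 T cells. *Actn1*, the actin crosslinker alpha-actinin 1, had 63.8 and 36.1 in NK cells, against 1845 and 2247 in CD8 T cells. In each of these genes the groups lay far apart on all 4 arrays. *Dpp4*, the surface peptidase CD26, was 35.0-fold lower in NK cells, *St6gal1*, a sialyltransferase, 34.5-fold lower and *Slfn1*, a schlafen family gene, at least 36.5-fold lower. *Trav9d-3* is annotated as a variable segment of the T cell receptor alpha chain. Its probe set had 88.7 and 18.7 in NK cells, against 2640 and 2891 in CD8 T cells. The authors list another probe set of this annotation as *Tcra*, so the values may not be those of this segment alone. The difference of -6.04 was -4.96 without NK cell replicate 2 and -7.11 without NK cell replicate 1. The list was completed by *Ccr9*, *Ccr7*, *Cd5* and *Themis*, described below, and by *Fam241a* (36.3-fold lower) and *Tdrp* (at least 31.7-fold lower).

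The killing machinery was read in both populations, at levels mostly higher in NK cells. The gene lists were chosen with earlier results of these data known, so their counts describe the lists and test nothing. Of 39 tested genes in 3 lists of granule effectors, granule transport and secretion, and death ligands and cytokines, 22 were higher in NK cells and 5 lower, and 12 were not called, against 21.5% higher and 16.6% lower over all genes tested. Their median difference was 0.81, against 0.05 over all genes. With the term for array names, 17 of the 39 were higher and 5 lower. Of these 39, 35 had a signal of at least 50 on all 4 arrays, beside 6779 of all 9391 genes tested. The lists hold 47 genes, of which 6 had no signal that passed the filter, 1 was measured only by a probe set shared with another gene and 1 was not analysed here. The scan day and the 3′ to 5′ ratio given above moved with this comparison as with every other.

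Perforin and the granzymes set the pattern. *Prf1*, the pore-forming protein that lets granzymes into the target, had 2914 and 3178 in NK cells, against 384 and 510.5 in CD8 T cells. It was thus above the B cell values of 49.5, 18.9 and 26.0 on every array of both populations, and 6.87-fold higher in NK cells than in CD8 T cells (log2 difference 2.78 ± 0.34, adjusted p = 0.000118). *Gzma*, a tryptase of the granules, was among the brightest genes of NK cells with 18718 and 18346, and had 2303 and 954 in CD8 T cells. Its difference of 3.64 (adjusted p = 0.000498) was 4.28 without CD8 T cell replicate 1 and 3.01 without CD8 T cell replicate 2. *Gzmb*, which cleaves caspases in the target, had 3280 and 2871 in NK cells, against 317 and 172 in CD8 T cells, and was 13.2-fold higher in NK cells (adjusted p = 1.03e-06). *Gzmm* did not follow *Gzma* and *Gzmb*. It had 154 and 192 in NK cells, against 142 and 165 in CD8 T cells, and its difference of 0.17 had a 95% interval of -0.19 to 0.52, within 2-fold. *Gzmk* had 119 and 191 in NK cells, against 219 and 228 in CD8 T cells, and was not called (-0.57, adjusted p = 0.0512). Without NK cell replicate 2 *Gzmk* was called lower in NK cells, with a difference of -0.90 and an adjusted p of 0.00314. *Gzmc*, *Gzmd*, *Gzme*, *Gzmf* and *Gzmg* stayed near or under the floor on all 4 arrays and were not tested, with the highest values 23.7 for *Gzmd* on NK cell replicate 1 and 20.9 for *Gzmf* on NK cell replicate 2.

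The proteins that accompany granzymes in the granule, or guard the killer against them, were called higher in NK cells in most cases. *Nkg7*, a granule membrane protein, had 7811 and 7707 in NK cells, against 2913 and 3137 in CD8 T cells (2.57-fold). *Ctsw*, a papain-like protease of cytotoxic cells, had 7785 and 8085 in NK cells, against 2185 and 2543 in CD8 T cells (3.37-fold). The call of *Ctsw* (adjusted p = 0.00792) was lost at 0.0506 without NK cell replicate 2 and at 0.0600 without CD8 T cell replicate 1, and its difference of 1.75 was 0.44 with a term for the set of array names. *Cst7*, the protease inhibitor cystatin F, had 1492 and 1714 in NK cells, against 628 and 636 in CD8 T cells (2.53-fold). All 3 were bright in both populations and between 1.02 and 59.6 on the B cell arrays. The serpins stood further apart. *Serpinb9*, which inhibits granzyme B, had 2944 and 1930 in NK cells, against 209.6 and 192 in CD8 T cells (11.9-fold). *Serpinb6b*, of the same serpin clade, had 2432 and 1969 in NK cells, against 273 and 167 in CD8 T cells (10.2-fold), and *Serpinb9b* had 289 and 265 in NK cells, against 22.5 and 12.9 in CD8 T cells (log2 difference 3.70). Without the floor, *Gzma*, *Nkg7*, *Cst7* and *Serpinb6b* kept their differences but had adjusted p-values of 0.0648, 0.428, 0.0528 and 0.0751. *Lamp1*, a membrane protein of lysosomes and granules that marks degranulation, was 1.88-fold higher in NK cells. *Lamp2*, its relative, had 1377 and 581 in NK cells, against 539 and 480.5 in CD8 T cells, and was not called (adjusted p = 0.0726), but without NK cell replicate 2 its difference was 1.44 with an adjusted p of 0.00169. *Srgn*, the proteoglycan serglycin that holds granzymes in the granule, was called at 1.43-fold higher but within 2-fold (95% interval 0.20 to 0.82), with 3942 and 3990 in NK cells, against 2835 and 2731 in CD8 T cells and 4491, 4552 and 4791 in B cells. Its adjusted p was 0.0521 without CD8 T cell replicate 2, and 0.206 after quantile and 0.297 after invariant rank normalization. *Ctsc*, the protease that activates granzymes, was not called (0.78, adjusted p = 0.0814). *Ctsl*, cathepsin L, was the only one of the 16 effector genes tested to be called lower, with 68.0 and 68.2 in NK cells, against 173 and 175 in CD8 T cells.

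**Figure D2:**
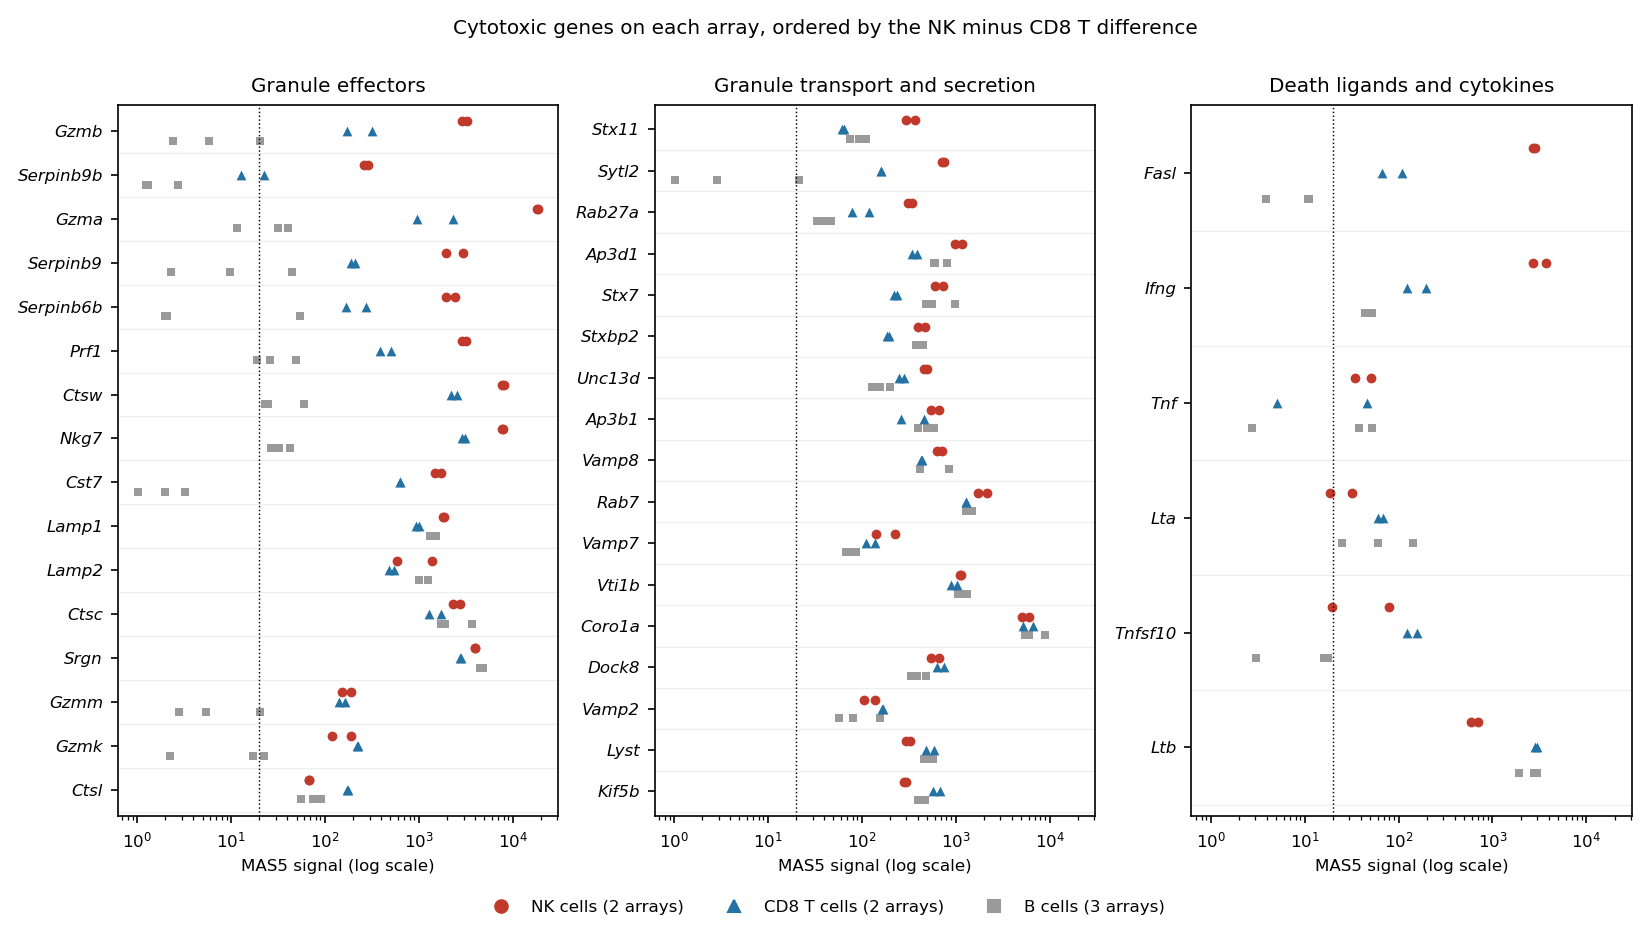
MAS5 signal on a log scale of the 39 tested cytotoxic genes on each array, with NK cells as circles, CD8 T cells as triangles and B cells as squares, the floor of 20 as a dotted line and values under 1 drawn at 1. The circles lie right of the triangles for most granule effectors, from Gzmb at the top down to Lamp1, while the markers overlap or lie close for Gzmm, Coro1a, Dock8 and Vti1b, and the squares lie far left for Gzma, Gzmb, Nkg7 and Cst7.

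Among 17 tested genes that move and release granules, 9 were higher in NK cells and 2 lower, beside 21.5% and 16.6% over all genes tested. *Rab27a*, a small GTPase that docks granules at the membrane, had 308 and 343 in NK cells, against 78.5 and 120.4 in CD8 T cells (3.34-fold). *Sytl2*, a synaptotagmin-like effector of Rab27a, had 758 and 724 in NK cells, against 162 and 162 in CD8 T cells (4.56-fold, with an adjusted p of 0.211 without the floor). *Stx11*, the syntaxin mutated in a form of human familial haemophagocytic lymphohistiocytosis, had 367 and 294 in NK cells, against 64.3 and 61.1 in CD8 T cells (5.24-fold). Its binding partner *Stxbp2* (Munc18-2) was 2.26-fold higher in NK cells, and *Ap3d1*, a subunit of the AP-3 sorting adaptor, 2.97-fold. The priming factor *Unc13d* (Munc13-4) had 459.9 and 492 in NK cells, against 284 and 248 in CD8 T cells, and was called at 1.79-fold higher. That call was lost without NK cell replicate 1 (adjusted p = 0.0511), NK cell replicate 2 (0.0723) or CD8 T cell replicate 2 (0.0908). *Ap3b1*, another subunit of AP-3, was called at 1.75-fold higher with 548 and 666 in NK cells, against 261 and 459 in CD8 T cells. Its adjusted p was between 0.0661 and 0.287 without NK cell replicate 1, NK cell replicate 2 or CD8 T cell replicate 1. Another probe set of *Ap3b1* was not called, with 280 and 375 in NK cells, compared with 354 and 417 in CD8 T cells (-0.24). *Stx7*, an endosomal syntaxin, was 2.86-fold higher, with an adjusted p of 0.0954 under the term for array names. *Rab7*, a GTPase of late endosomes, was called at 1.49-fold higher. The call of *Rab7* was lost without NK cell replicate 1 (adjusted p = 0.0769), CD8 T cell replicate 1 (0.0549) or CD8 T cell replicate 2 (0.0606).

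The 2 transport genes called lower in NK cells were *Kif5b*, a kinesin motor that carries granules along microtubules, and *Lyst*, the lysosomal trafficking regulator of the beige mouse. *Kif5b* had 281 and 294 in NK cells, against 570.1 and 689.6 in CD8 T cells (2.18-fold lower). Other probe sets of *Kif5b* gave differences of -3.42 and -2.29, both called lower, and of 0.07 and 0.82, neither called. Its difference thus depends on the probe set. *Lyst* had 296 and 324 in NK cells, against 588 and 484 in CD8 T cells (1.72-fold lower). The adjusted p of *Lyst* was 0.0603 without NK cell replicate 1 and 0.0861 without CD8 T cell replicate 1. *Vamp2*, *Vamp7* and *Vamp8*, vesicle fusion proteins, were not called, with differences of -0.47, 0.51 and 0.65.

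Of the cytotoxic genes, 6 met the rule for likeness, a 95% interval within 2-fold and at least 50 on all 4 arrays. They were *Gzmm*, *Srgn*, *Rab7*, *Vti1b*, *Dock8* and *Coro1a*. Over all 6779 genes at 50 or more on all 4 arrays, 3005 met it (44.3%), so the 6 of 35 stand below that share. *Coro1a*, the actin regulator coronin 1A, had 5097 and 6111 in NK cells, against 5254 and 6695 in CD8 T cells and 9042, 6016 and 5498 in B cells. *Dock8*, an exchange factor for Cdc42, had 545 and 670.1 in NK cells, compared with 634 and 756 in CD8 T cells (-0.20, interval -0.64 to 0.25). Another probe set of *Dock8* was called lower in NK cells, with 39.8 and 116 in NK cells, against 257 and 236 in CD8 T cells (-1.86, adjusted p = 0.00754). *Vti1b*, a SNARE protein, had 1128 and 1127 in NK cells, compared with 897 and 1024 in CD8 T cells. Of these 6, *Gzmm* is known as a gene of cytotoxic lymphocytes, and its B cell values were 5.45, 2.83 and 20.3.

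Set against B cells, which do not kill by granules, 21 of the 39 cytotoxic genes were higher in NK cells (21.5% of all genes tested) and 19 were higher in CD8 T cells (16.9% of all). These comparisons share the 3 B cell arrays. *Gzma*, *Gzmb*, *Gzmk*, *Gzmm*, *Prf1*, *Nkg7*, *Ctsw* and *Cst7* were called above B cells in both populations. *Serpinb9b* was called above B cells in NK cells (adjusted p = 3.44e-09), and in CD8 T cells was not (adjusted p = 0.674).

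Death ligands and secreted cytokines went both ways. *Fasl*, the ligand of the death receptor Fas, had 2821 and 2670 in NK cells, against 108 and 66.3 in CD8 T cells, and at 32.4-fold had the largest difference among the 39 cytotoxic genes (log2 5.02 ± 0.25, adjusted p = 1.44e-07). *Ifng*, interferon gamma, had 2717 and 3721 in NK cells, against 122 and 196 in CD8 T cells (20.5-fold higher, adjusted p = 2.67e-07). Transcripts of both were bright in NK cells of untreated mice and far lower in CD8 T cells, with no overlap. *Ltb*, lymphotoxin beta, ran the other way, with 598 and 695 in NK cells, against 2959 and 2820 in CD8 T cells (4.48-fold lower). *Tnfsf10*, which encodes the death ligand TRAIL, had 79.0 and 19.5 in NK cells, against 125 and 157 in CD8 T cells, and was called lower in NK cells (-1.82, adjusted p = 0.0103). Its adjusted p was 0.0742 without CD8 T cell replicate 2, and the difference was -0.83 without NK cell replicate 2 and -2.81 without NK cell replicate 1. *Tnf* had 34.5 and 51.2 in NK cells, compared with 5.13 and 46.4 in CD8 T cells, *Lta* had 31.8 and 18.8 in NK cells, compared with 61.0 and 68.3 in CD8 T cells, and neither was called.

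The 15 tested genes of the T cell receptor complex and coreceptors were lower in NK cells in 13 cases and higher in none. Their median difference was -4.44, and over all genes tested 16.6% were lower and 21.5% higher. The NK cells were sorted as TCRβ- and the T cells are named by CD8, so this count in part checks the sort. *Cd3d* had 121 and 158 in NK cells, against 2752 and 3281 in CD8 T cells, and *Cd3g* had 75.9 and 102 in NK cells, against 2657 and 2470 in CD8 T cells. *Cd3d* and *Cd3g* thus kept a signal above the floor in NK cells that was 21.7-fold and 29.1-fold below that of CD8 T cells. The CD3 zeta chain also serves Fc and natural cytotoxicity receptors of NK cells. *Cd247*, its gene, had 552 and 793 in NK cells, against 887 and 1100 in CD8 T cells and 23.5, 1.68 and 18.5 in B cells, and its difference of -0.58 (adjusted p = 0.0403) was not called without NK cell replicate 1 (-0.32, adjusted p = 0.234) or CD8 T cell replicate 2 (-0.42, adjusted p = 0.209). *Cd5*, a scavenger receptor that tunes T cell receptor signals, had 4.45 and 7.23 in NK cells, against 805 and 1306 in CD8 T cells (at least 51.3-fold lower). *Themis*, a T cell signalling protein, had 8.10 and 2.12 in NK cells, against 793 and 705 in CD8 T cells. The costimulatory receptor gene *Cd28* had 246 and 248 in NK cells, against 863 and 1120 in CD8 T cells (3.98-fold lower). Its adjusted p was 0.244 without the floor. Another probe set of *Cd28* differed less, with 408 and 373 in NK cells, against 662 and 540 in CD8 T cells (-0.61). *Cd27*, another costimulatory receptor, was alike, with 467 and 403 in NK cells, compared with 413 and 459 in CD8 T cells (difference -0.01, interval -0.33 to 0.32). *Icos* was called 1.90-fold lower, a call lost without NK cell replicate 2 (adjusted p = 0.116) or CD8 T cell replicate 1 (0.144).

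NK receptors mirrored this. Of 13 activating receptor genes tested, 10 were higher in NK cells and 1 lower, with a median of 3.86. Of 13 inhibitory receptor genes tested, 7 were higher and none lower, with a median of 1.59. Both counts stand beside 21.5% higher and 16.6% lower over all genes tested. *Klrk1*, which encodes NKG2D, had 1009 and 1654 in NK cells, against 136 and 58.3 in CD8 T cells (3.86, or 4.47 without CD8 T cell replicate 1 and 3.25 without CD8 T cell replicate 2). *Fcgr3*, the Fc receptor CD16 of antibody-dependent killing, had 456 and 645 in NK cells, against 16.9 and 27.9 in CD8 T cells (23.0-fold). *Cd244a*, the SLAM family receptor 2B4, had 1763 and 1854 in NK cells, against 14.5 and 5.02 in CD8 T cells. *Slamf6*, of the same family, was the activating receptor gene called lower, with 57.8 and 107 in NK cells, against 343 and 439.8 in CD8 T cells. *Cd7* was 2.96-fold higher in NK cells, with an adjusted p of 0.135 without the floor and 0.0529 with the term for array names. *Cd2*, which binds CD48, had 2434 and 3638 in NK cells, compared with 2073 and 2460 in CD8 T cells, and was not called. *Crtam*, an adhesion receptor of cytotoxic lymphocytes, had 283 and 416 in NK cells, compared with 480.3 and 474 in CD8 T cells, and was not called, with an interval within 2-fold.

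Among inhibitory receptors, *Klra7* (Ly49G) had 1004 and 1092 in NK cells, against 49.9 and 74.9 in CD8 T cells (17.1-fold). *Klra5* was 5.14-fold higher at lower signals, with 127 and 93.8 in NK cells, against 22.6 and 11.6 in CD8 T cells. *Klrg1*, a receptor for cadherins on mature NK and effector T cells, had 1425 and 1755 in NK cells, against 245 and 159.9 in CD8 T cells (7.99-fold). *Klrc1*, the NKG2A chain, had 1202 and 1469 in NK cells, against 418 and 191 in CD8 T cells (4.70-fold). The adjusted p of *Klrc1* was 0.347 without the floor and 0.0627 with only the 4 arrays fitted. *Klrd1*, the CD94 chain with which NKG2A pairs, was bright in both, with 9390 and 7907 in NK cells, compared with 3966 and 3452 in CD8 T cells, and was not called (1.22, adjusted p = 0.0698). *Cd96*, a receptor for nectin family proteins, had 607 and 654 in NK cells, compared with 319 and 847 in CD8 T cells, and was not called. Its difference of 0.28 was -0.43 without CD8 T cell replicate 1. Probe sets shared by near-identical receptor genes were kept apart. One for *Klra3* and *Klra9* averaged 14813 in NK cells, against 245 in CD8 T cells, and one for *Klrb1b* and *Klrb1c*, the second of which encodes the sorting marker NK1.1, averaged 3816 in NK cells, against 13.1 in CD8 T cells. One for *Klrc2* and *Klrc3* averaged 141 in NK cells, against 15.9 in CD8 T cells. Probe sets of single Klra and Klrb1 genes may also catch transcripts of close relatives, so that their values are uncertain as to the member.

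These receptors neighbour each other on mouse chromosome 6, a region known as the NK gene complex. In RefSeq order from *Klrb1a* to *Klra2* lie 92 genes, 18 of which were tested. Of 11 Klr genes tested there, 9 were higher in NK cells and none lower, with a median difference of 4.10. Of the 7 other genes tested there, 4 were higher and 1 lower, with a median of 1.41. Both counts stand beside 21.5% higher and 16.6% lower over all genes tested. The gene called lower was *Cd69*, an early activation antigen, with 244 and 229 in NK cells, against 1470 and 1425 in CD8 T cells (6.12-fold lower).

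**Figure D3:**
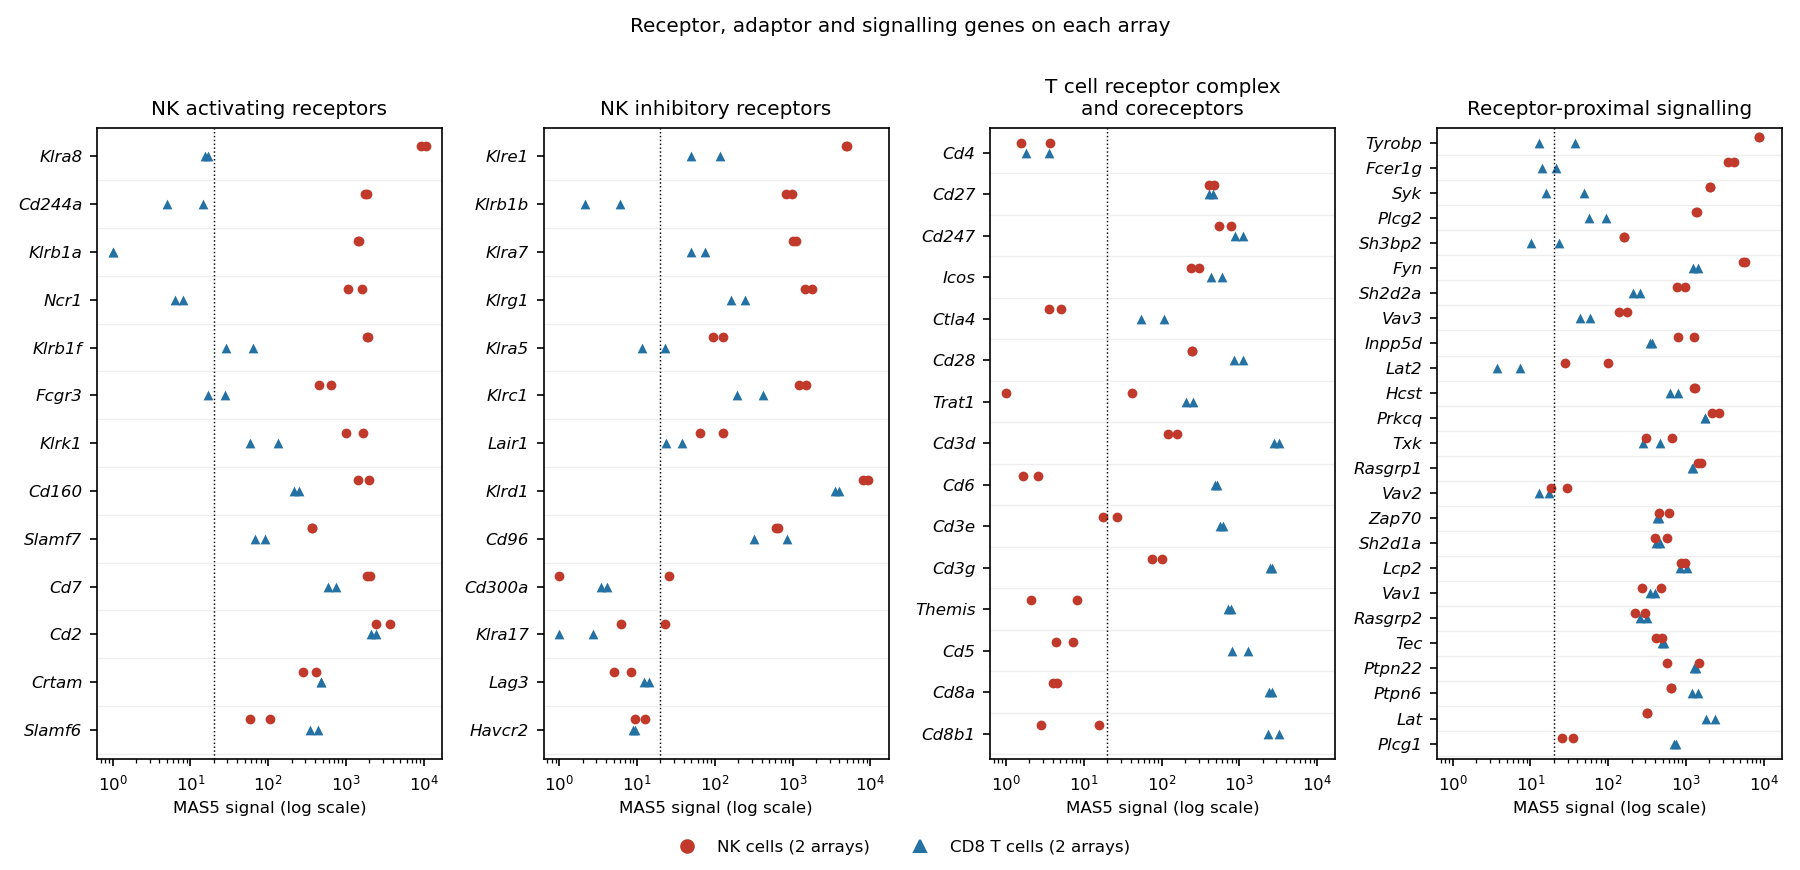
MAS5 signal on a log scale on each of 2 NK cell arrays (circles) and 2 CD8 T cell arrays (triangles) for tested NK receptors, T cell receptor complex genes and genes of receptor-proximal signalling, with the floor of 20 as a dotted line and values under 1 drawn at 1. Genes are ordered by their difference: Klra8, Klre1 and Tyrobp head panels in which circles lie far right of triangles, Cd8b1 and Plcg1 close panels in which they lie far left, and Cd27, Zap70 and Lcp2 have overlapping or adjoining markers.

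Downstream of the receptors, the phospholipase C gamma genes went opposite ways, whereas of the Syk family kinases 1 was higher in NK cells. *Syk*, the tandem SH2 kinase of ITAM receptors, had 2038 and 2014 in NK cells, against 48.2 and 16.1 in CD8 T cells (65.2-fold). The log2 difference of *Syk* was 6.66 without CD8 T cell replicate 1 and 5.39 without CD8 T cell replicate 2. *Zap70*, its relative that serves the T cell receptor, was not called by the probe set used, with 445 and 614 in NK cells, compared with 454 and 429 in CD8 T cells (0.24, interval -0.13 to 0.62). Another probe set of *Zap70* was called lower in NK cells, with 329 and 177 in NK cells, against 581 and 722 in CD8 T cells (-1.42, adjusted p = 0.00196). *Plcg2*, phospholipase C gamma 2, had 1385 and 1354 in NK cells, against 92.9 and 57.0 in CD8 T cells (18.8-fold higher). *Plcg1*, phospholipase C gamma 1, had 25.6 and 35.2 in NK cells, against 699 and 748 in CD8 T cells (24.1-fold lower). Of these 4 enzymes, the NK cell arrays thus had *Syk*, *Zap70* and *Plcg2* far above the floor, and the CD8 T cell arrays *Zap70* and *Plcg1*. *Lat*, the scaffold on which phospholipase C gamma 1 is recruited in T cells, had 312 and 317 in NK cells, against 1797 and 2342 in CD8 T cells (6.52-fold lower). *Fyn*, a Src family kinase, was 4.31-fold higher in NK cells, *Sh2d2a* 3.73-fold, *Vav3* 3.10-fold and *Sh3bp2*, an adaptor that binds Syk family kinases, 7.39-fold. Without the floor, *Lat* and *Sh2d2a* kept their differences at adjusted p-values of 0.0693 and 0.0759.

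Over the list of receptor-proximal signalling genes, 7 of 22 tested were higher in NK cells and 2 lower, and 13 were not called. The shares over all genes tested were 21.5% higher and 16.6% lower. *Lcp2* (SLP-76) had 853 and 964 in NK cells, compared with 845 and 1032 in CD8 T cells, *Vav1* had 275 and 476 in NK cells, compared with 346 and 403 in CD8 T cells, and *Sh2d1a* (SAP), the adaptor of SLAM receptors, had 396 and 573 in NK cells, compared with 407 and 463 in CD8 T cells. The intervals of these 3 lay within 2-fold. In all, 7 of the 16 genes of the list at 50 or more on all 4 arrays did so, near the 44.3% over all such genes. Of 7 adaptor and ITAM chain genes, *Tyrobp* and *Fcer1g* were called higher in NK cells and the CD3 and zeta chain genes lower. *Hcst*, the adaptor DAP10 through which NKG2D signals, had 1277 and 1294 in NK cells, compared with 629.7 and 799.8 in CD8 T cells, and was not called (0.86, adjusted p = 0.159). It was called above B cells in both, with adjusted p-values of 2.25e-05 for NK cells and 0.000187 for CD8 T cells.

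Transcription factor genes mostly divided along the lineages, in lists chosen with earlier results of these data known. Of 21 tested factors known from NK or effector cells, 14 were higher in NK cells and 1 lower, with a median of 2.26. The shares over all genes tested were 21.5% and 16.6%. *Irf8*, an interferon regulatory factor, had 3479 and 3423 in NK cells, against 88.6 and 86.5 in CD8 T cells (39.4-fold). *Bhlhe40*, a helix-loop-helix factor of activated lymphocytes, had 1061 and 1406 in NK cells, against 34.8 and 29.0 in CD8 T cells (38.5-fold). *Zeb2*, a zinc finger factor of mature NK and effector T cells, had 971 and 847 in NK cells, against 39.1 and 41.1 in CD8 T cells (22.6-fold). *Zeb1*, its paralogue, was not called and stayed within 2-fold (0.38, interval 0.01 to 0.74) by the probe set used, but another probe set of *Zeb1* was called lower in NK cells, with 62.6 and 51.9 in NK cells, against 355 and 248 in CD8 T cells (-2.38, adjusted p = 0.0232). *Mef2c* was at least 14.5-fold, *Prdm1* (Blimp-1) 12.2-fold and *Maf* 9.88-fold higher in NK cells. *Eomes*, the T-box relative of T-bet, had 4086 and 3742 in NK cells, against 913 and 733 in CD8 T cells (4.78-fold, with an adjusted p of 0.156 without the floor). The T-box genes were thus higher in NK cells but well above the floor in CD8 T cells as well. *Ikzf2* (Helios) was the factor of this list called lower in NK cells, with 112 and 132 in NK cells, against 411 and 356 in CD8 T cells.

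Of 21 tested factors of the T lineage and of naive T cells, 12 were lower in NK cells and 4 higher. Their median was -1.17, and over all genes tested 16.6% were lower and 21.5% higher. *Bcl11b*, which commits precursors to the T lineage, had 155 and 107 in NK cells, against 2883 and 2705 in CD8 T cells (21.7-fold lower). *Lef1*, a partner of beta-catenin, had 188 and 196 in NK cells, against 1495 and 1386 in CD8 T cells (7.51-fold lower). *Id3*, an inhibitor of E proteins, had 10.8 and 13.3 in NK cells, against 285 and 299.8 in CD8 T cells (at least 14.6-fold lower). *Tox* was 5.79-fold lower by the probe set used, with 23.1 and 43.3 in NK cells, against 214 and 156 in CD8 T cells. Another probe set of *Tox* was called the opposite way, with 101 and 74.1 in NK cells, against 44.5 and 54.4 in CD8 T cells, so its direction is not settled. The 4 called higher were *Nr4a1*, an orphan nuclear receptor induced by antigen receptor signals (5.90-fold), *Runx1* (5.19-fold), *Gata3* (2.25-fold) and *Zbtb7b* (1.91-fold). *Gata3* is needed in both lineages and had 297 and 331 in NK cells, against 134 and 145 in CD8 T cells. The call of *Zbtb7b* was lost without NK cell replicate 1 (adjusted p = 0.0513), NK cell replicate 2 (0.105) or CD8 T cell replicate 2 (0.126). *Foxo1*, which drives genes of naive T cell homing, had 1211 and 894 in NK cells, compared with 985 and 1190 in CD8 T cells, and its target *Klf2* had 2707 and 2775 in NK cells, compared with 2383 and 2474 in CD8 T cells. Neither was called by the probe sets used, but both other probe sets of *Foxo1* were called lower in NK cells (-1.47, adjusted p = 0.00269, and -0.69, adjusted p = 0.0319). Without the floor, *Gata3* and *Tox* had adjusted p-values of 0.497 and 0.272, and with only the 4 arrays fitted *Nr4a1* had 0.0517.

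**Figure D4:**
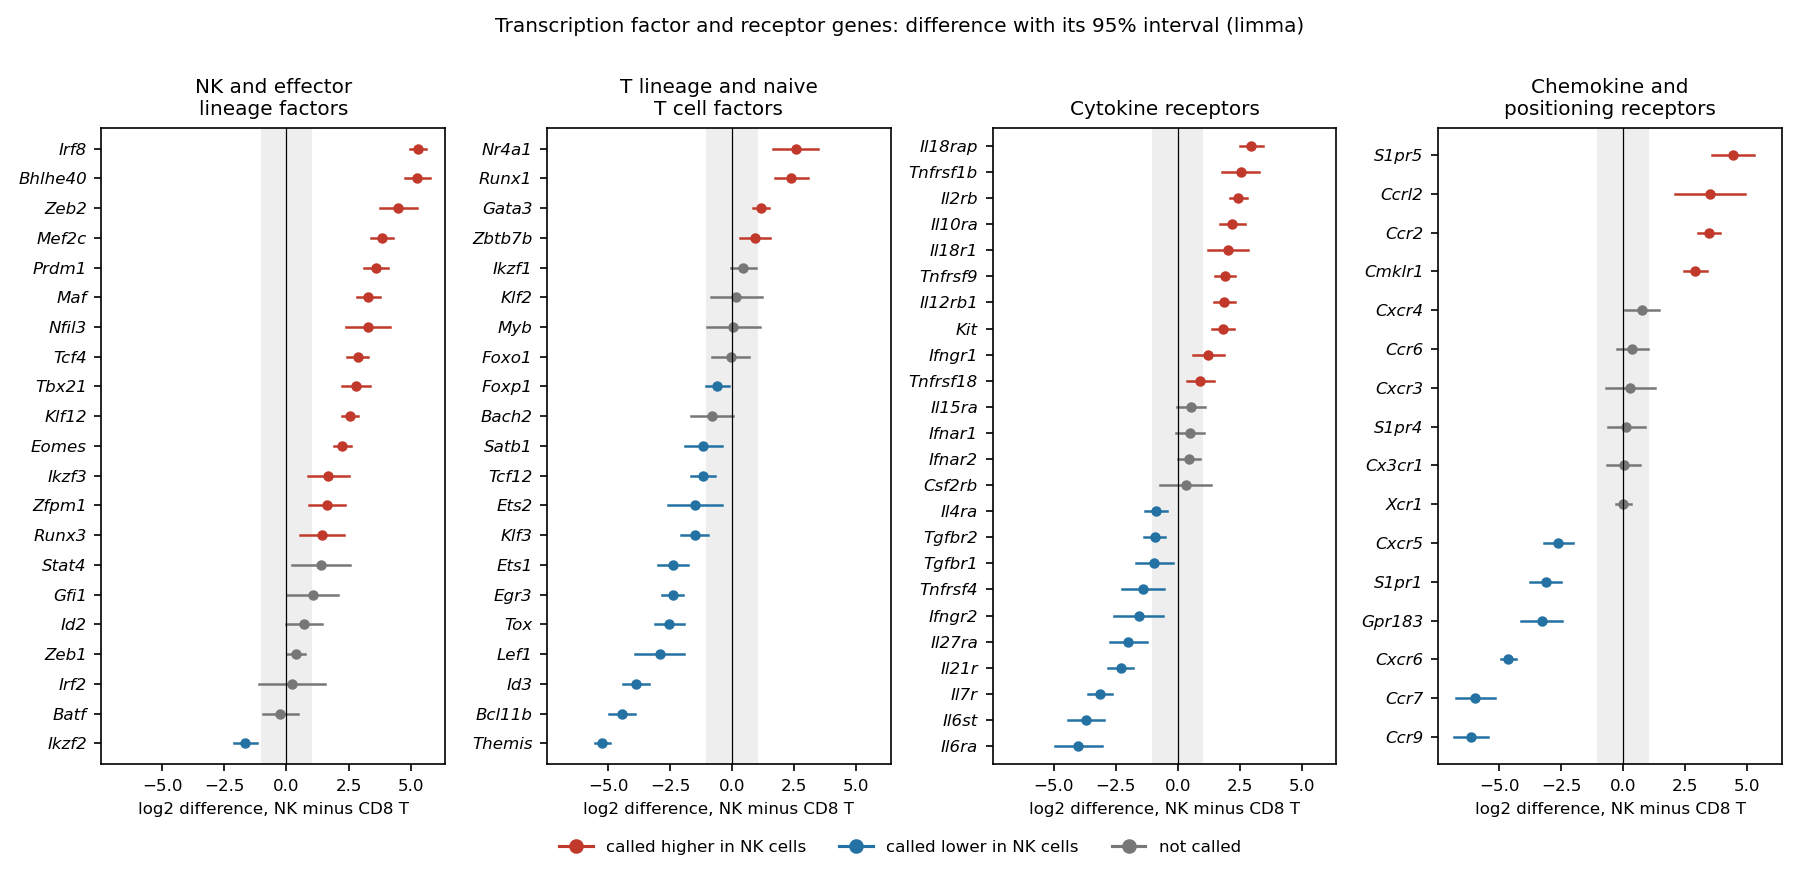
Log2 difference, NK cells minus CD8 T cells, with its 95% interval from limma, for the tested genes of 4 lists, and with differences within 2-fold shaded. Red marks genes called higher in NK cells, blue called lower and grey not called: 14 of 21 NK and effector factors are red, 12 of 21 T lineage factors blue, and the cytokine receptors are split 10 to 10.

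Cytokine receptors were split evenly, with 10 of 24 higher in NK cells and 10 lower, beside 21.5% and 16.6% over all genes tested. *Il2rb*, the beta chain of the IL-2 and IL-15 receptors, had 1374 and 1228 in NK cells, against 262 and 218 in CD8 T cells (5.43-fold). The IL-18 receptor chains were both higher in NK cells. *Il18r1* had 4577 and 3527 in NK cells, against 874 and 1103 in CD8 T cells (4.09-fold), and *Il18rap* had 1920 and 1905 in NK cells, against 234 and 254 in CD8 T cells (7.85-fold). *Il10ra* was 4.59-fold and *Tnfrsf9*, which encodes 4-1BB, 3.76-fold higher. In the other direction, *Il7r*, the receptor of the survival cytokine IL-7, had 571 and 493 in NK cells, against 4820 and 4475 in CD8 T cells (8.75-fold lower). Both chains of the IL-6 receptor were lower in NK cells. *Il6ra* had 1.63 and 1.47 in NK cells, against 335 and 309 in CD8 T cells (at least 16.1-fold lower), and *Il6st* (gp130) had 61.1 and 35.9 in NK cells, against 575 and 653 in CD8 T cells (13.1-fold lower). *Il21r* and *Il27ra* were 4.90-fold and 3.96-fold lower. *Ifnar2*, a chain of the type I interferon receptor, had 381 and 503 in NK cells, compared with 313 and 323 in CD8 T cells, with an interval within 2-fold, while another probe set of *Ifnar2* was called lower in NK cells (-0.62, adjusted p = 0.0325). Without the floor, the adjusted p of *Il2rb*, *Il18r1* and *Il18rap* was 0.0595, 0.0608 and 0.0907 at differences that kept their direction.

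Of 16 chemokine and positioning receptor genes tested, 4 were higher in NK cells and 6 lower, beside 21.5% higher and 16.6% lower over all genes tested. *Ccr7*, which guides naive T cells to the T zone, had 3.47 and 27.4 in NK cells, against 1247 and 1713 in CD8 T cells (62.4-fold lower). *Ccr9*, a receptor for homing to thymus and gut, had 6.51 and 16.2 in NK cells, against 1561 and 1260 in CD8 T cells (at least 70.1-fold lower). The sphingosine phosphate receptors, through which lymphocytes leave lymphoid organs, went opposite ways. *S1pr5* had 2726 and 2725 in NK cells, against 165 and 98.8 in CD8 T cells (21.4-fold higher), while *S1pr1* had 89.5 and 110.1 in NK cells, against 791 and 942 in CD8 T cells (8.70-fold lower). *S1pr4* had 1078 and 1282 in NK cells, compared with 962 and 1199 in CD8 T cells, and its interval lay within 2-fold (0.13). *Ccr2*, a receptor for inflammatory chemokines, had 1463 and 1090 in NK cells, against 133 and 97.3 in CD8 T cells (11.1-fold). *Cmklr1*, the chemerin receptor, was 7.50-fold higher, with an adjusted p of 0.204 without the floor. *Ccrl2* had 116 and 438 in NK cells, against 5.55 and 19.5 in CD8 T cells, and its difference of 3.50 was 4.45 without NK cell replicate 1 and 2.54 without NK cell replicate 2. Its adjusted p was 0.0674 with only the 4 arrays fitted and 0.0503 with the term for array names. *Cxcr6* had 5.24 and 18.9 in NK cells, against 489 and 501 in CD8 T cells (at least 24.7-fold lower), *Cxcr5* was at least 6.12-fold lower and *Gpr183* 9.80-fold lower. *Cx3cr1* had 116 and 145 in NK cells, compared with 169.6 and 96.8 in CD8 T cells, and *Cxcr3* had 2142 and 1915 in NK cells, compared with 1509 and 1823 in CD8 T cells. Neither was called, and the interval of *Cx3cr1* lay within 2-fold.

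Chemokine genes were higher in NK cells in 6 of 8 cases and lower in none, beside 21.5% and 16.6% over all genes tested. Of the 6, *Cxcl10* and *Cxcl16* lay near the floor. *Cxcl10* had 64.2 and 74.3 in NK cells, against 10.1 and 15.7 in CD8 T cells. *Cxcl16* had 37.8 and 32.3 in NK cells, against 12.6 and 11.7 in CD8 T cells. Neither kept its call with a floor of 50. *Ccl3* had 2502 and 3753 in NK cells, against 32.0 and 44.2 in CD8 T cells (81.4-fold), and *Ccl4* had 1314 and 1978 in NK cells, against 103 and 129 in CD8 T cells (13.9-fold). Both encode inflammatory chemokines, and neither overlapped between the populations. *Xcl1*, the ligand of a receptor on cross-presenting dendritic cells, was 6.25-fold higher. *Ccl5* was bright in both, with 12576 and 12443 in NK cells, against 5020 and 4238 in CD8 T cells, and its call (1.44, adjusted p = 0.0391) was lost with each of the 4 arrays left out (adjusted p between 0.112 and 0.165). Of 21 integrin and adhesion genes, 10 were higher in NK cells and 4 lower, beside the same 21.5% and 16.6%. *Itgax* (CD11c) had 2922 and 2933 in NK cells, against 153 and 115 in CD8 T cells (22.1-fold). *Itgam* (CD11b) was at least 7.39-fold, *Itga2* (CD49b) at least 4.22-fold, *Itga4* 4.10-fold and *Itgb2* 2.53-fold higher in NK cells. The difference of *Itgb2* was 0.40 (adjusted p = 0.338) with the term for array names. *Itgae* (CD103), which binds E-cadherin, had 65.6 and 47.7 in NK cells, against 1095 and 1028 in CD8 T cells (19.0-fold lower). *Thy1* was called 1.89-fold lower, with 2012 and 1360 in NK cells, against 3320 and 2949 in CD8 T cells, a call lost without NK cell replicate 2 (adjusted p = 0.0561) or CD8 T cell replicate 1 (0.0549). *Icam2* had 674 and 842 in NK cells, compared with 561 and 685 in CD8 T cells, and lay within 2-fold.

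Cell cycle, stress and ribosomal genes were read for the state of the cells. Of 18 replication and mitosis genes, 8 were higher in NK cells and 1 lower, beside 21.5% and 16.6% over all genes tested. *Stmn1*, a microtubule regulator of dividing cells, had 3537 and 3769 in NK cells, against 1087 and 720.1 in CD8 T cells (4.13-fold). *Cdk1* had 109 and 148 in NK cells, against 42.4 and 36.5 in CD8 T cells (3.24-fold), and *Ccna2* was 3.32-fold higher. With the term for array names the differences of *Cdk1* and *Ccna2* were 1.16 (adjusted p = 0.0636) and 0.87 (adjusted p = 0.197). *Mki67* was called 2.45-fold higher with 414 and 545 in NK cells, against 282 and 134 in CD8 T cells, a call lost without NK cell replicate 2 (adjusted p = 0.118) or CD8 T cell replicate 2 (0.160). *Pcna*, the sliding clamp of replication, was alike, with 2125 and 2733 in NK cells, compared with 2352 and 2457 in CD8 T cells. Immediate early genes overlapped between the populations in some cases and lay apart in others. *Fos* had 1927 and 5198 in NK cells, compared with 1582 and 4157 in CD8 T cells, and *Egr1* had 436 and 1035 in NK cells, compared with 750.3 and 962 in CD8 T cells, so that the groups overlapped. *Btg2* was called higher, with 2329 and 2317 in NK cells, against 486 and 866 in CD8 T cells. Its adjusted p was 0.0506 with only the 4 arrays fitted. *Egr3* was called lower, with 47.6 and 61.8 in NK cells, against 313 and 259 in CD8 T cells. Of 19 immediate early and heat shock genes, 3 were higher and 2 lower, and 14 were not called, beside the same shares over all genes. Of 19 ribosomal protein genes, 5 were higher and 4 lower, shares near those over all genes, and 12 lay within 2-fold by their interval. *Rps14* and *Rps18* were 1.63-fold and 1.64-fold higher in NK cells, but after quantile normalization their differences were -0.019 and -0.061. *Rps19* and *Rpl12* were 1.81-fold and 3.34-fold lower.

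**Figure D5:**
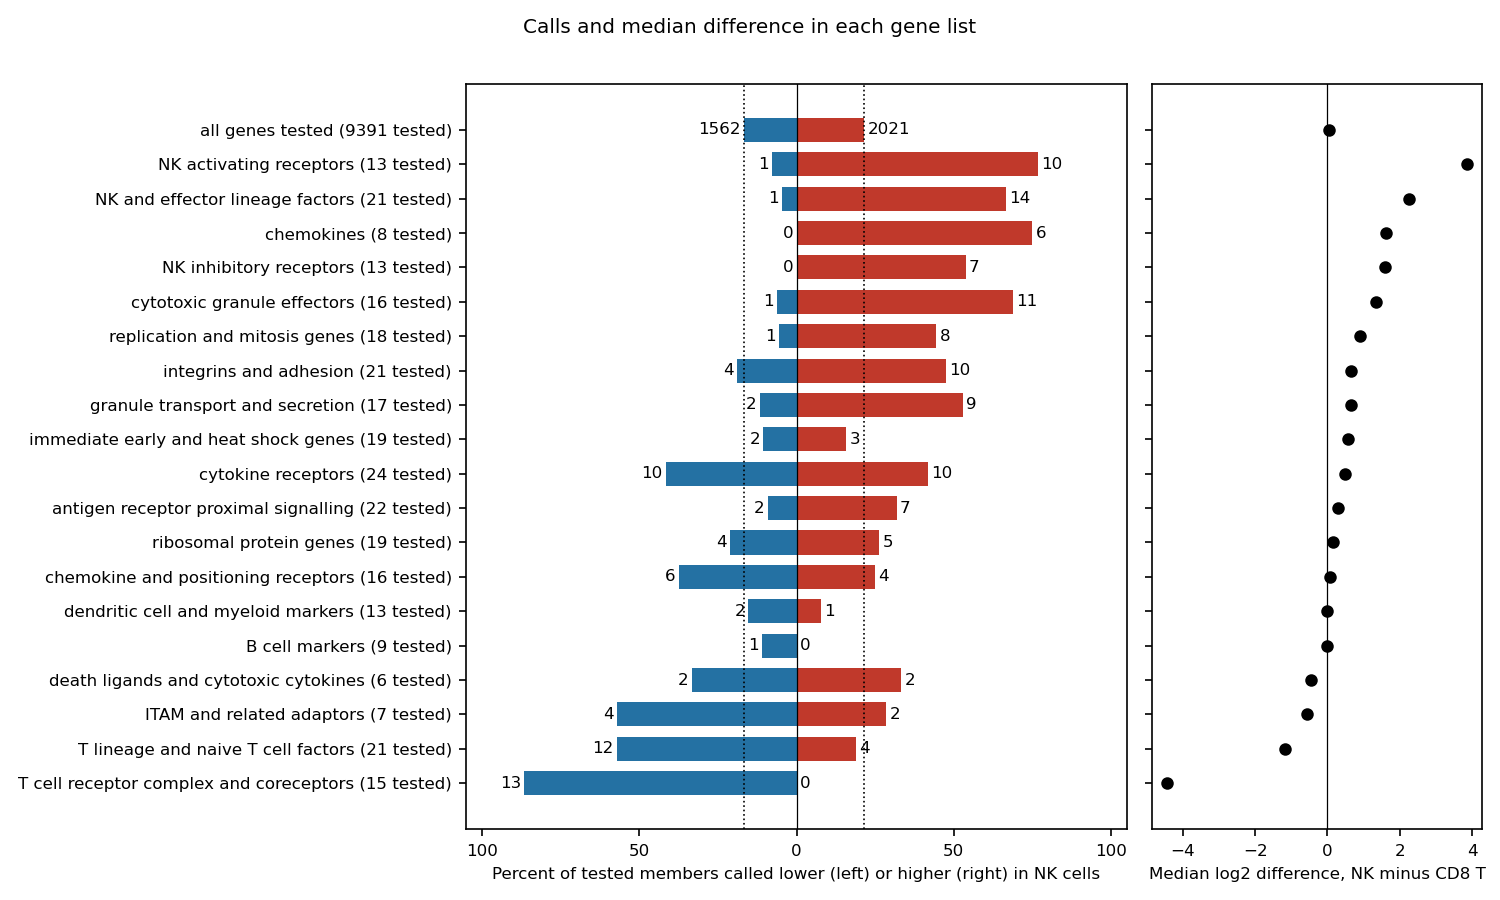
For each gene list drawn (the erythroid and sex-linked lists, with 1 and 4 tested genes, are left out), the percent of tested members called lower (left, blue) or higher (right, red) in NK cells with their number, beside the median log2 difference, NK cells minus CD8 T cells. Dotted lines mark the shares over all 9391 genes tested, 16.6% lower and 21.5% higher. Of the lists drawn, the T cell receptor complex reaches furthest left with 13 of 15 and the NK activating receptors furthest right with 10 of 13.

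Beyond the lists, genes that were bright and alike were found among the housekeeping machinery. Over the 10 genes with a mean of at least 1000 in both populations and the narrowest interval within 2-fold, *Psma6*, a proteasome subunit, had 2618 and 2496 in NK cells, compared with 2509 and 2439 in CD8 T cells (interval -0.27 to 0.37). *Dock11*, an exchange factor for Cdc42, had 3036 and 3087 in NK cells, compared with 3392 and 3164 in CD8 T cells (interval -0.42 to 0.22). *Rpl22* had 10043 and 9641 in NK cells, compared with 7853 and 7764 in CD8 T cells. Both other probe sets of *Rpl22* were called lower in NK cells (-1.46, adjusted p = 0.0181, and -1.07, adjusted p = 0.0198), and so was another of *Psma6* (-0.53, adjusted p = 0.0385), so that the likeness of these genes rests on the probe sets used. *Sucla2*, a subunit of succinyl-CoA ligase, had 1467 and 1405 in NK cells, compared with 1147 and 1174 in CD8 T cells. Of the 10, *Srgn*, *Pcbp2*, *Psmc2*, *Ywhae* and *Polr2b* were called higher in NK cells, calls that were lost after quantile normalization. Another probe set of *Ywhae* was called lower, with 118 and 117 in NK cells, against 378 and 308 in CD8 T cells (-1.54). *Etnk1*, ethanolamine kinase 1, was called lower in NK cells while staying within 2-fold (1004 and 1041 in NK cells, against 1690 and 1416 in CD8 T cells), a call lost without CD8 T cell replicate 1 (adjusted p = 0.0594). In all, 155 genes were both called and within 2-fold by their interval.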

How the data were processed

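Natural killer cells, CD8 T cells and 4 further leukocyte populations were profiled on 13 Affymetrix Mouse Genome 430 2.0 arrays, with RNA amplified in 2 rounds. The methods give 100 ng of total RNA per sample, while the instrument records list 50 ng for 2 B cell arrays, 89 ng for 1 other array and no amount for the CD8 T cell arrays. The deposited values were linear MAS5 signals, an expression intensity that the authors scaled to a target of 100 per array, and the number of arrays limits the precision. Of 45101 probe sets, 34958 had 1 gene symbol in the platform annotation (932 had several and 9211 none). Values were floored at 20 and taken to log2. Genes were tested where every array of some population read 50 or more, and the probe set with the highest mean over all arrays stood for each gene. Limma 3.58.1 (R 4.3.3) was fitted to all 13 arrays with 1 mean per population. A gene was alike where its 95% interval lay within 2-fold and all 4 arrays read at least 50. Folds are between geometric means of floored values.

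Any member of the cytotoxic and adaptor lists could be named, and from each other list up to 6 called members per direction with the largest difference and up to 3 with the smallest. The 15 largest differences each way without overlap of arrays and the 10 narrowest intervals at a mean of 1000 or more were named too, and Eomes, Klrk1, Zap70 and Cd28 were added after their values were seen. Members and lists were chosen with earlier results of these data known. The tests were checked on simulated data. Alternatives tried were the normalization, floor, filter, probe set choice, arrays fitted, variance trend, replicate block, terms for the set of array names and the scan day, and leaving out each array.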

Additional observations from a re-analysis of the deposited data

How the results depend on the processing

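The 2021 higher and 1562 lower calls in NK cells became 1550 and 1102 with only the 4 arrays fitted, 2249 and 1341 after quantile and 2225 and 1321 after invariant rank normalization, and 1723 and 1292 without a floor. Leaving out 1 array gave 1358 to 1544 higher and 1010 to 1202 lower genes. The populations came from separate sorts, so their replicate numbers name no shared experiment, and the correlation of the differences between replicates was 0.184. With the replicate number as a block, 1944 genes were higher and 1521 lower, and Cd247 lost its call (adjusted p = 0.0595, limma). Of 163 named genes called, 99 kept the call in all 16 alternatives and 32 lost it with 1 array left out. The term for the set of array names rests on the B cell arrays alone, the only population in both sets. With a term for the set of array names the direction turned in Cd2 (-0.38), Cd96 (-0.78), Ctsc (-0.26), Cxcr3 (-1.28), Dnajb1 (-1.55), Fos (-4.54), Hcst (-0.45), Klf2 (-1.08), Klrd1 (-0.35), Tnf (-0.46), Vamp2 (0.52) and Vamp8 (-0.39), none of them called without that term, and Cxcr3, Dnajb1 and Fos were called with it. Quantile normalization turned Dnajb1 (-0.066), Kdm5d (0.0054), Rps14 (-0.019), Rps18 (-0.061), Rps2 (-0.077) and Rps3 (-0.041), and invariant rank normalization turned Dnajb1 (-0.063), Kdm5d (0.033) and Klf2 (-0.085). With 1 array left out, the difference turned within the ranges of Cd96 (-0.43 to 0.98), Dnajb1 (-0.078 to 0.30), Egr1 (-0.96 to 0.29), Fos (-0.41 to 1.02), Irf2 (-0.75 to 1.2), Kdm5d (-0.36 to 0.047), Myb (-0.33 to 0.44) and Tnf (-0.14 to 1.07). The cause was not tested. Of the 39 cytotoxic genes, 4 to 9 were alike, 19 to 20 higher and 4 to 6 lower with 1 array left out.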
